A study of Homo sapiens with 6 samples.

Results

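Peaks of N6-methyladenosine (m6A) that began within the first 100 bases of a messenger RNA were examined in HEK293T, a cell line established from human embryonic kidney. They were taken from the gene columns of the deposited m6A table by 2 conditions, a peak start of 100 or less and a RefSeq transcript identifier beginning with NM_, which marks protein-coding transcripts. This gave 1631 peaks of the 26475 in the table. The m6A data came from 1 immunoprecipitated and 1 input library after siRNA knockdown of TRMT10A, and 1 of each after a control knockdown. RNA bound to TRMT10A was located by CLIP (crosslinking followed by immunoprecipitation) in 2 replicates, whose siRNA label reads TRMT10A without saying whether the gene was knocked down. All 6 samples were HEK293T cells, transfected with siRNA through Lipofectamine RNAiMax per the labels, and their RNA was selected for poly(A) and depleted of ribosomal RNA. The table gives 1 peak list for both arms and no read count or expression value for any library. No peak height could therefore be compared between arms, neither the knockdown nor markers of the cell line could be checked there, and no p-value is given.

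m6A is the methylation of adenosine inside messenger RNA. It is written by the METTL3 and METTL14 complex, mostly in the sequence GGACU or its wider form DRACH, and is best known around stop codons and in 3' UTRs. Sites in 5' UTRs have been linked to cap-independent translation. Antibodies against m6A also bind m6Am (N6,2'-O-dimethyladenosine), which PCIF1 makes on the adenosine next to the cap of transcripts that begin with A, so signal at a transcript start can come from either base. TRMT10A is known for methylating guanosine 9 of tRNAs.

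Of the start peaks, 13 could be tied to a ratio of the authors through GGACU positions. The following sites are those of the highest and lowest ratios among them and of PDE3A. CLIP clusters were also listed for PDE3A, all of them in introns and so not at these sites. Each site is given 5' to 3' with 8 bases on either side, in the DNA letters of the GENCODE release 29 transcripts (GRCh38), where U is written T. Capitals mark GGACT.
CDKAL1 (chr6:20534539-20534559, plus strand): ctcactttGGACTggttttta
CDKAL1 (chr6:20535358-20535378, plus strand): tttcaagaGGACTttagacta
MPC1 (chr6:166382835-166382855, minus strand): aaagcggcGGACTatgtccga
MPC1 (chr6:166382808-166382828, minus strand): gatttccgGGACTacctcatg
ABTB2 (chr11:34357960-34357980, minus strand): ctggtcccGGACTcgcgctgc
ABTB2 (chr11:34357873-34357893, minus strand): tctgtggaGGACTgactctct
PDE3A (chr12:20369357-20369377, plus strand): gcgggccgGGACTgccaccat
PDE3A (chr12:20369393-20369413, plus strand): tcgccgcgGGACTcgggctgc
EFNB1 (chrX:68829091-68829111, plus strand): gggagccaGGACTcggcgacg
EFNB1 (chrX:68829152-68829172, plus strand): aactaatgGGACTggctcgct
NHS (chrX:17375552-17375572, plus strand): ccaaaggaGGACTggctggac
NHS (chrX:17375561-17375581, plus strand): gactggctGGACTgatttgct
NHS (chrX:17375629-17375649, plus strand): gcgtatccGGACTgccagatc
NHS (chrX:17375653-17375673, plus strand): cttttgccGGACTcctgcccc
ZDHHC3 (chr3:44976000-44976020, minus strand): cgggttggGGACTgcagggga
ZDHHC3 (chr3:44975948-44975968, minus strand): ggggtctgGGACTggggaact
In the matched GENCODE transcripts the PDE3A sites lie in coding sequence and all the others in 5' UTRs. Other transcripts of a gene, as of MPC1, can place the same site in another region. Of the 3 CDKAL1 motifs, the 2 whose surrounding bases lie in a single exon are shown, and the first pair of NHS sites overlaps in the printed bases.

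The first question was how common start peaks were and where they began. They lay on 1631 transcripts of 1631 genes, 1 on each, out of 8967 genes with an NM_ transcript in the table. That is 18.2% of genes (95% Wilson interval 17.4 to 19.0%) and 6.30% of the 25869 peaks on such transcripts. Wilson intervals here and elsewhere cover counting error only. A further 56 start peaks lay on noncoding NR_ transcripts and were left out.

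Peaks were sparser at the first bases than a little further in. By 50-base steps, 653 peaks began at bases 1 to 50, 978 at 51 to 100, 968 at 101 to 150 and 776 at 151 to 200. Per 100 bases the number was 1631 at the start, 1744 at 101 to 200, 1312 at 201 to 300 and 846 at 901 to 1000. Base 1 itself stood out from the bases behind it, with 153 peaks (9.38% of start peaks, 8.06 to 10.9%) against 45 over bases 2 to 10. Further in the counts were higher again, with 79 peaks at 11 to 20, 181 at 51 to 60 and 221 at 91 to 100. A peak that reached beyond the annotated start would be listed at base 1, and how many of the 153 did so was not tested.

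The threshold of 100 lay in a dense stretch of peak starts. Just inside lay ADAM17, the sheddase that releases TNF, at bases 100 to 276, the aldose reductase gene AKR1B1 at 100 to 234 and C22orf29 at 100 to 219. Just outside lay AADAT, an aminotransferase of tryptophan breakdown, at 101 to 360, ALG13, which acts in N-glycan synthesis, at 101 to 320 and the claudin gene CLDN7 at 101 to 332.

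Start peaks were shorter than peaks elsewhere. Their median length was 159 bases (interquartile range 147 to 187, range 100 to 693), against 177 bases (156 to 220, range 100 to 802) for the 24238 other peaks of NM_ transcripts. The shortest length listed, 100 bases, was reached by 116 start peaks (7.11%) and by 1027 other peaks (4.24%). Lengths over 300 bases were rarer at starts, with 71 peaks (4.35%) against 2033 (8.39%). Peaks at base 1 had a median of 133 bases and the remaining start peaks one of 160. Positions of the form 1 plus a multiple of 10 made up 429 start-peak beginnings (26.3%) and 31.5% of the others. The 429 include the 153 at base 1, which the annotated start can set, so 26.3% can overstate the grid at starts. Part of the listed borders thus follow a 10-base grid, and the resolution is no finer than that for them.

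**Figure D1:**
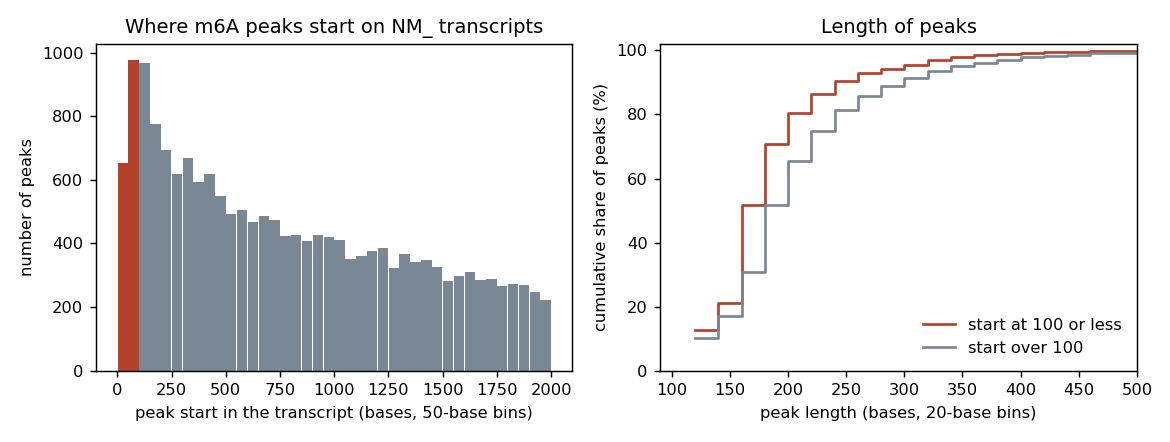
Left, number of m6A peaks on NM_ transcripts by start position, in 50-base bins over the first 2000 bases; red bars are the 653 and 978 start peaks. Right, cumulative share of peaks by length in 20-base bins, for peaks starting at 100 or less (red, median 159 bases) and for all others (grey, median 177 bases).

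A few start peaks were far longer than the rest. The longest covered 693 bases of PLXNB2 (53 to 745), which encodes a semaphorin receptor, and the next 610 bases of CANX (64 to 673), which encodes the chaperone calnexin of the endoplasmic reticulum. ZNF609 followed with 509 bases, UBE2V2 with 454, SETD6 with 451, CLSPN with 443, ATL2 with 429, MNAT1 and TULP3 with 418 each and ANXA5 with 414. In CLSPN, whose product claspin acts in the replication checkpoint, the stretch held 15 DRACH matches and no GGACU. In UBE2V2 and ANXA5 the long start peak was the single peak of the transcript.

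Where the start peaks lay relative to the reading frame was read from GENCODE release 29 transcripts, which could be matched for 1581 of the 1631 (96.9%). Of these, 617 peaks (39.0%) lay wholly in the 5' UTR, 722 (45.7%) overlapped the start codon and 242 (15.3%) lay wholly in coding sequence. In 730 (46.2%) the peak held the end of the first exon. The 5' UTRs of start-peak transcripts had a median of 166 bases (interquartile range 85 to 309), against 215 (105 to 363) for the 7072 matched transcripts without a start peak. These positions are approximate. Among 114 lines of the table whose motif spacing placed them in 1 gene, the GENCODE start matched the table's exactly in 33 (28.9%), within 10 bases in 49 (43.0%) and within 100 bases in 90 (78.9%).

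Most start-peak transcripts carried m6A elsewhere too. A further peak was present on 1269 (77.8%, 75.7 to 79.8%), while on 362 (22.2%) the start peak stood alone. Among the 7336 transcripts without a start peak, 5147 (70.2%, 69.1 to 71.2%) had 2 or more peaks. The mean number of peaks, the start peak included, was 3.23 on start-peak transcripts, or 2.23 further peaks, and 2.81 on the others. A transcript with more peaks has more chances of one at its start, so choosing by a start peak favours transcripts with several, and no difference is read from these values. Start-peak transcripts with 2, 3, 4 and 5 peaks numbered 394, 296, 222 and 140, and 27 had 10 or more.

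The number of peaks grew with transcript length, so the comparison was also made within length classes. Up to 1500 bases, 30.0% of 217 start-peak transcripts had 2 or more peaks, against 28.0% of 728 others, and the intervals overlapped. Between 1500 and 2500 bases the shares were 73.6% of 345 start-peak transcripts and 58.7% of 1735 others. They were 83.7% against 75.9% at 2500 to 4000 bases, 92.3% against 84.4% at 4000 to 6000 and 92.2% against 87.4% over 6000. The intervals did not overlap in any of the first 3 of these 4 longer classes (68.7 to 78.0% against 56.3 to 61.0% in the 1500 to 2500 class). In the class over 6000 bases the intervals were 88.6 to 94.7% and 85.3 to 89.2%. The choice of members by a start peak acts within each class too, so the shares are a description.

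**Figure D2:**
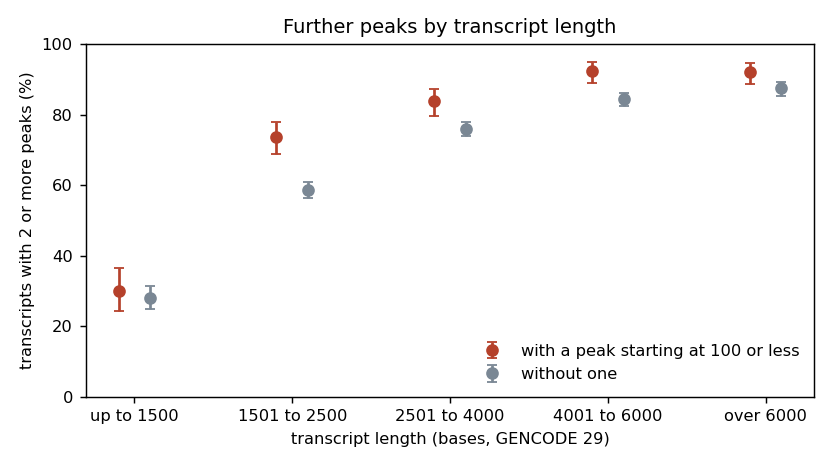
Share of transcripts with 2 or more m6A peaks (%) by GENCODE transcript length in bases, for transcripts with a peak starting at 100 or less (red, left of each pair) and without one (grey); bars are 95% Wilson intervals. The pair up to 1500 bases overlaps, at 30.0 and 28.0%, and the red points lie higher in the longer classes, a direction that choosing transcripts by a start peak can itself give.

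The next peak was often close. The gap between the end of the start peak and the beginning of the next had a median of 211 bases (interquartile range 61 to 690), and 405 of 1269 gaps (31.9%) were under 100 bases. In 221 (17.4%) the next peak began at the very next base, so that the 2 listed peaks abut. ZNF609 is an example, with peaks at 22 to 530 and at 531 to 640. Transcripts with a lone start peak were short, with a median of 1704 bases against 3843 for start-peak transcripts with further peaks, while the start peaks themselves had medians of 158 and 159 bases.

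The transcripts with most peaks were long ones. RNF213, which encodes a large ubiquitin ligase, had 19 peaks, the dynein heavy chain gene DYNC1H1 and the histone methyltransferase gene NSD1 had 15 each, and ANKRD17 and SMG1, the kinase of nonsense-mediated decay, had 14 each. AMER1 had 13, and ABL2, COL12A1, ITPR1 and MDN1 had 12 each. In MDN1, which encodes a ribosome assembly factor, the start peak at 60 to 227 was followed by a gap that lasted to base 9611, whereas in SMG1 the next peak began at base 128, straight after the start peak at 10 to 127.

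Peaks at the stop codon, the usual place of m6A, were counted next. Of 3537 further peaks on start-peak transcripts, 698 (19.7%, 18.5 to 21.1%) lay within 100 bases of the stop codon, against 3691 of 19909 peaks (18.5%, 18.0 to 19.1%) on the other transcripts, and these intervals overlapped. Per transcript the order depended on the denominator. Of all 1581 matched start-peak transcripts, 619 (39.2%, 36.8 to 41.6%) had a peak there, against 3278 of 7072 others (46.4%, 45.2 to 47.5%). Every other transcript had a peak beyond base 100, as it is in the table only through such peaks, while 355 of the 1581 had none. Of the 1226 start-peak transcripts with a further peak, the same 619 were 50.5% (47.7 to 53.3%). No difference is read from these shares.

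The GGACU and DRACH sequences were less frequent in start peaks. DRACH stands for A, G or U, then A or G, then AC, then A, C or U, and the transcript strand alone was searched, with overlapping matches counted for DRACH (every GGACU is also a DRACH match). GGACU occurred in 260 of 1581 start peaks (16.4%, 14.7 to 18.4%), against 5286 of 22815 other peaks (23.2%, 22.6 to 23.7%). Per 100 bases of peak, which allows for length, there were 0.108 GGACU in start peaks and 0.138 in the others. DRACH occurred in 1377 start peaks (87.1%) at 1.45 per 100 bases, and in 95.4% of the other peaks at 2.04 per 100 bases. More than 1 GGACU was found in 28 start peaks (1.77%) and in 761 others (3.34%). The start peaks with most GGACU were those of NHS with 4, and of CDKAL1, SNAPC1 and the zinc finger gene ZMAT2 with 3 each, followed with 2 each by ABTB2, BAG6, BMP6, C18orf21, CEP78 and CPEB4.

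Because m6Am needs an A next to the cap, the first base was compared between start-peak and other transcripts, and its level depended on the annotation. GENCODE starts gave A for 30.8% of 1581 start-peak transcripts (28.6 to 33.1%) and 28.8% of 7072 others (27.8 to 29.9%). The gene starts of RefSeq on GRCh38.p14 gave A for 51.2% of 1364 start-peak genes (48.5 to 53.8%) and 44.7% of 6101 others (43.5 to 46.0%). With those starts, C stood first in 10.4% against 12.2%, G in 37.8% against 41.7% and T in 0.587% against 1.34%. Within the start peaks, A stood first for 52.7% of 129 genes with a peak at base 1 (44.1 to 61.1%), 54.2% of 378 with one at 11 to 50 (49.2 to 59.2%) and 49.7% of 815 with one at 51 to 100 (46.3 to 53.1%). Genes whose start peak stood alone had A in 53.3% of 300, and those with further peaks in 50.6% of 1064. The intervals of these subsets of start peaks overlapped. Between start-peak and other transcripts the intervals overlapped with GENCODE starts and did not with RefSeq gene starts. Where the 2 starts lay within 10 bases, A stood first in 36.3% of 355 start-peak transcripts (31.5 to 41.5%). The share was 30.7% of 1256 others (28.2 to 33.3%), and these intervals overlapped.

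Start peaks were then counted in 34 gene lists, each beside the 18.2% of all genes with NM_ transcripts. Replication-dependent histones, which package new DNA in S phase, had 8 of 14 (57.1%, 32.6 to 78.6%). Nuclear-encoded subunits of the respiratory chain had 23 of 59 (39.0%, 27.6 to 51.7%) and mitochondrial ribosomal proteins 20 of 59 (33.9%, 23.1 to 46.6%). For these 3 lists the whole interval lay above 18.2%. The lists' median transcript lengths were short, at 668, 1097 and 1472 bases. Of all 945 matched transcripts up to 1500 bases 23.0% (20.4 to 25.8%) had a start peak, against 17.7% of 7708 longer ones. The share did not fall steadily with length. It was 16.6% at 1500 to 2500 bases, 16.2% at 2500 to 4000, 17.7% at 4000 to 6000 and 21.8% (19.7 to 24.0%) over 6000.

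Among respiratory chain subunits with transcripts up to 1500 bases, 20 of 39 (51.3%) had a start peak, and among the longer ones 3 of 19 (15.8%). For mitochondrial ribosomal proteins the figures were 12 of 31 (38.7%) and 8 of 27 (29.6%). Cytoplasmic ribosomal proteins, whose transcripts were as short (median 907 bases), had a start peak in 4 of 33 (12.1%) up to 1500 bases and in 7 of 45 (15.6%, 7.75 to 28.8%) in all.

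In the respiratory chain the start peaks fell on subunits of several complexes. The longest were those of ATP5O (bases 93 to 300) and ATP5C1 (54 to 215), both of ATP synthase, and of NDUFS6 (18 to 197) and NDUFB5 (48 to 226), both of complex I. Only 4 of these 23 transcripts had a further peak. Among mitochondrial ribosomal proteins the longest were MRPS6 (98 to 360), MRPS24 (81 to 310), MRPL15 (93 to 295) and MRPS25 (54 to 252), and 6 of the 20 had a further peak.

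The histone start peaks were those of HIST2H2BE (41 to 310), HIST1H2BN (21 to 184), HIST1H4C and HIST2H4A (ending at 170) and 4 more, and 1 of the 8 transcripts had a further peak. HIST2H4A and HIST2H4B, and HIST2H3A and HIST2H3C, are pairs of near-identical genes listed with the same peak, so the 8 genes stand for fewer separate signals. These mRNAs normally lack a poly(A) tail, and the labels state poly(A) selection. Cytoplasmic ribosomal members included RPL7L1 (49 to 232), which is a paralogue and not a subunit, RPLP2 (72 to 240), RPL23A (85 to 241) and RPS25 (34 to 190).

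RNA processing and replication genes came next. Splicing factors and hnRNP proteins had 27 of 105 (25.7%, 18.3 to 34.8%), with the longest peaks in SRSF11 (100 to 393), HNRNPD (90 to 330), RBM41 (71 to 300) and RBM25 (99 to 325), and 20 of the 27 had a further peak. Its interval lay just above 18.2%. MCM and origin genes, which license replication, had 7 of 24 (29.2%, 14.9 to 49.2%), among them MCM6 (100 to 305), GINS1 (83 to 249), MCM2 (99 to 257) and ORC6 (83 to 236). Genes for tRNA modification had 10 of 47 (21.3%, an interval that reaches 34.9%), with TYW3 (59 to 250), TRIT1 (97 to 255), LCMT2 (87 to 244) and TRMT2B (100 to 257) the longest. Both of the last 2 intervals include 18.2%.

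The m6A machinery showed no start peak on its writers. None of the 9 writer complex genes in the table had one, which allows a share of up to 29.9% by the Wilson interval. Of the 2 demethylase genes, ALKBH5 had one at bases 1 to 120 and 4 further peaks. Of 19 reader genes 4 had one, namely IGF2BP1 (63 to 335), SND1 (72 to 294), YTHDC2 (97 to 274) and YTHDC1 (55 to 212). Of 20 cap methylation and cap binding genes 4 had one, namely the cap-binding NCBP3 (67 to 245) and NCBP1 (70 to 245), the capping enzyme gene RNGTT (91 to 253) and the decapping enhancer gene EDC3 (43 to 169).

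Several of the remaining lists lay below 18.2%, and others near or above it. Zinc finger genes of the ZNF series, mostly transcriptional regulators, had 18 of 198 (9.09%, 5.83 to 13.9%), and this interval lay below 18.2%. Their transcripts were long, with a median of 3652 bases. Of the 188 over 1500 bases 17 (9.04%) had a start peak, against 17.7% of all matched transcripts that long. The longest start peaks after ZNF609 were those of ZNF367 (60 to 378), ZNF286B (58 to 342) and ZNF326 (26 to 250). Aminoacyl-tRNA synthetases had 3 of 38 (7.89%, 2.72 to 20.8%), those of IARS2, FARSA and RARS. Heat shock proteins and chaperones had 7 of 60 (11.7%), solute carriers 21 of 161 (13.0%), mRNAs with a 5' terminal oligopyrimidine tract other than those of ribosomal proteins 3 of 24 (12.5%) and HOX genes 0 of 11, and their intervals all include 18.2%. Translation initiation factors had 11 of 51 (21.6%), proteasome subunits 8 of 42 (19.0%), kelch-like and BTB-domain genes 11 of 76 (14.5%), cyclins and cyclin-dependent kinases 7 of 45 (15.6%) and DEAD-box and DEAH-box helicases 7 of 49 (14.3%). These 5 lists and the 12 not described ran from 0.00% (protocadherins and nuclear speckle transcripts) to 4 of 16 (actins and tubulins), and all of their intervals include 18.2%.

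**Figure D3:**
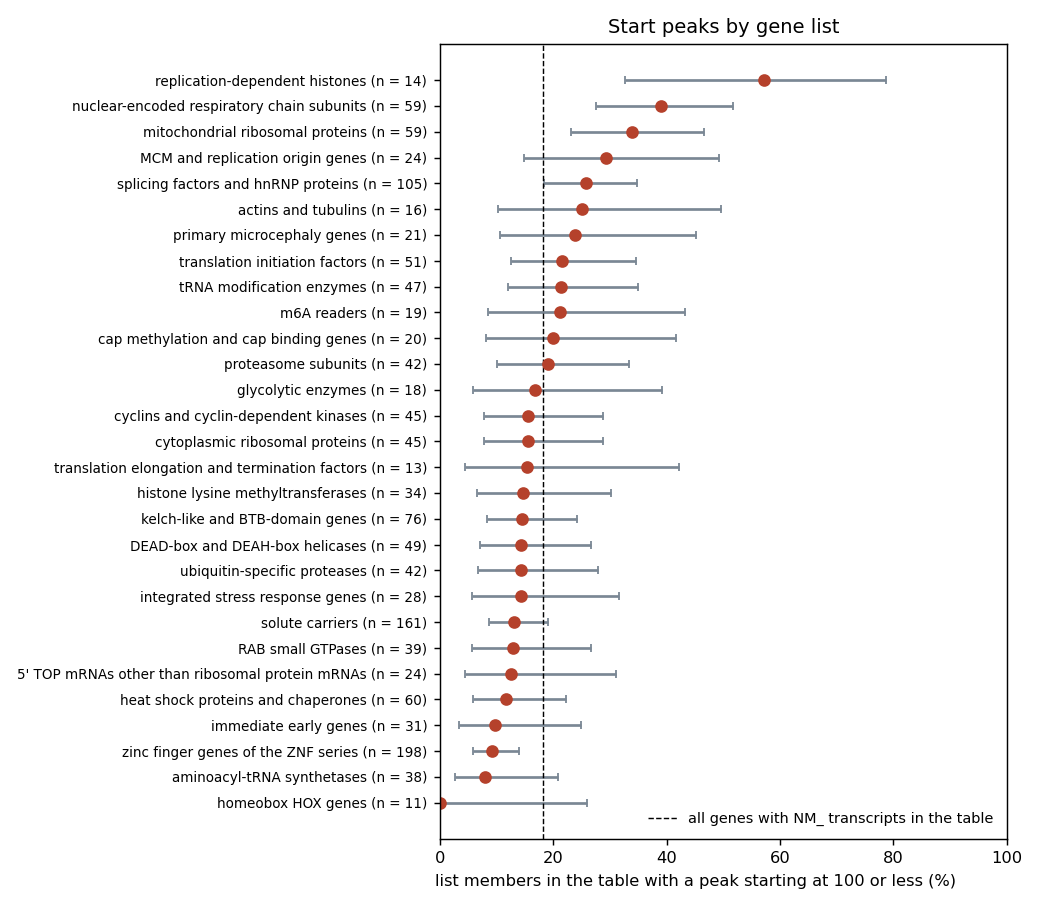
Share of genes with a peak starting at 100 or less (%), for gene lists with at least 10 members in the m6A table, with 95% Wilson intervals and the number of members in brackets; the dashed line is the 18.2% of all genes with NM_ transcripts. Histones (57.1%), respiratory chain subunits (39.0%) and mitochondrial ribosomal proteins (33.9%) lie above the line and ZNF genes (9.09%) below it with their whole interval.

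The knockdown question was which way m6A enrichment moved at these peaks. In the authors' deposited table each line holds a log2 ratio of TRMT10A knockdown over control, and 6314 lines also list transcript positions of GGACU. The ratios are sorted apart from the gene columns. A line whose first GGACU is listed at 100 or less must belong to a peak that starts there, and 64 such lines on coding transcripts were found. Their ratios in the authors' deposited table ran from -1.64 to 3.31 with a median of 0.39 (interquartile range -0.09 to 1.05) and were above 0 in 44 (68.8%). At least 2-fold higher in the knockdown were 17 (26.6%, 17.3 to 38.5%), against a background of 16.2% over all 26475 lines, whose median was 0.17. At least 2-fold lower were 2 (3.12%, 0.861 to 10.7%), against a background of 5.79%.

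The 64 lines at the start mixed regions, with 53 in 5' UTRs and 11 in coding sequence. Their medians in the authors' deposited table were 0.29 and 0.70. Motif lines beyond base 100 gave lower medians than these in the same region. The median was 0.22 for 480 lines in 5' UTRs, 0.10 for 4068 in coding sequence and -0.26 for 1572 in 3' UTRs. In the 5' UTR lines beyond base 100, 18.3% (15.1 to 22.0%) were at least 2-fold higher, an interval that overlaps that of the lines at the start. For the 53 5' UTR lines at the start the share was 22.6% (13.5 to 35.5%). The 13 lines with a first GGACU at 50 or less had a median of 0.19 in the authors' deposited table, so the order depends on the border. The authors call each line common or unique without saying to which arm a unique peak belongs. The 51 common lines at the start had a median of 0.25 in the authors' deposited table, with 10 at least 2-fold higher and 1 lower, and the 13 unique lines one of 1.13. All common lines of the authors' deposited table had a median of -0.03, and its 409 common 5' UTR lines with a first GGACU beyond base 100 one of 0.10. With 1 library in each arm these ratios have no replicate check and their depth is unknown.

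**Figure D4:**
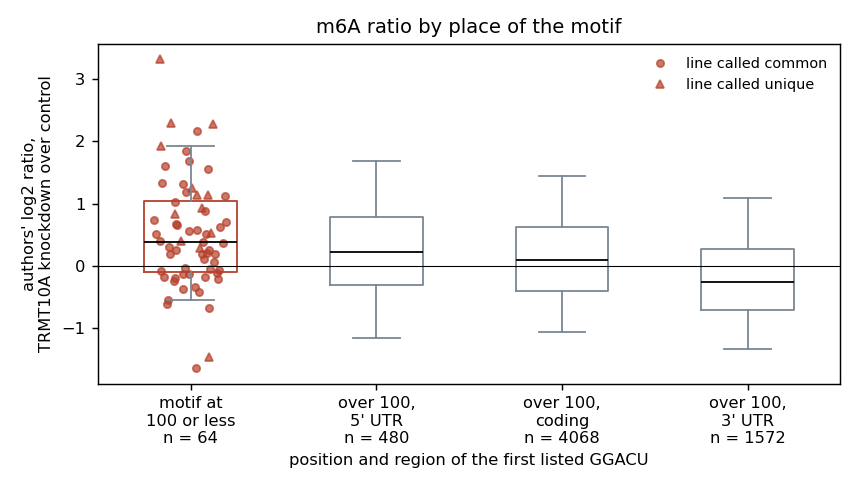
The authors' log2 ratio of TRMT10A knockdown over control for lines whose first GGACU is listed at 100 or less (red; points are lines, circles common and triangles unique) and for lines with it beyond 100 by region (grey); boxes are quartiles with the median, whiskers the 5th and 95th percentile of lines. The medians are 0.39, 0.22, 0.10 and -0.26 from left to right. The red group joins 53 lines in 5' UTRs with 11 in coding sequence.

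For 13 start peaks with at least 2 GGACU the whole set of positions identified the gene. In the authors' deposited table CDKAL1, which encodes a methylthiotransferase of tRNAs, had a ratio of 2.27 at its peak over bases 11 to 160, and MPC1, whose product carries pyruvate into mitochondria, one of 2.13 at 41 to 206. Both of these lines were called unique. ABTB2 followed with 1.84 in the authors' deposited table at bases 35 to 370, then TMEM18 with 0.62. SNAPC1, a subunit of the complex that activates transcription of small nuclear RNA genes, had 0.57 there, and the chaperone gene BAG6 -0.06. At the other end of the authors' deposited table lay ZDHHC3, a palmitoyltransferase gene, with -2.72 at 91 to 240, and NHS with -1.39 at 76 to 315. Next came the ephrin ligand gene EFNB1 with -0.99, TRIAP1 with -0.79, C18orf21 with -0.72 and the phosphodiesterase gene PDE3A with -0.55, and PLXNB2 had -0.39. The 13 ratios thus went both ways, with 5 above 0, 3 higher by 2-fold or more, 2 lower by as much, and in the authors' deposited table a median of -0.39 against -0.06 for the 275 other joined peaks. This median is below 0 while that of the 64 lines is above it, and the groups hardly share members, since 11 of the 13 have their first listed GGACU beyond base 100. With joins by 1 GGACU added, the joined start peaks numbered 26 and their median was 0.41 in the authors' deposited table, so the sign of the median depends on the joining.

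The last question was whether TRMT10A bound the mRNAs that carry start peaks. The CLIP tables list clusters with counts of conversion events, 1675 clusters with 342690 events in replicate 1 and 2183 with 496030 in replicate 2. Of the 1631 start-peak genes, 51 (3.13%, 2.39 to 4.09%) were listed in replicate 1 and 73 (4.48%, 3.57 to 5.59%) in replicate 2, against backgrounds of 3.58% and 5.81% of all 8967 genes. In both replicates 35 were listed (2.15%, 1.55 to 2.97%), against a background of 2.19%. With exon clusters in both, 24 were listed (1.47%, 0.991 to 2.18%), against a background of 1.46%. The interval held the background in replicate 1 and for both counts over the 2 replicates, and lay below it in replicate 2. The events describe the CLIP libraries and not enrichment, since a control precipitation was not analysed here.

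Intron clusters held most events among the 35 genes. PDE3A had 2265 events in replicate 1 and 4064 in replicate 2, the solute carrier gene SLC37A3 1133 and 1654, ERCC6L2 444 and 524, GPALPP1 166 and 332, and ANKRD52 21 and 38, all of them in introns. At GPALPP1 the clusters overlapped RN7SL49P, a copy of the signal recognition particle RNA. No gene of the small RNA classes searched was annotated at the other 4 genes. Nuclear tRNA genes were not among those classes, so their presence at these clusters was not tested. For all 35 genes the events per gene ran from 2 to 2265 with a median of 6 in replicate 1, and from 2 to 4064 with a median of 8 in replicate 2, and in 11 genes all clusters were in introns.

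In exons the events were few. The histone genes HIST2H4A and HIST2H4B shared 34 events in replicate 1 and 36 in replicate 2, and HIST2H3A and HIST2H3C shared 13 and 13. PLCG2, a phospholipase gene, had 16 and 42 events in its 3' UTR, where the small RNA copy RN7SKP176 overlaps. ACTB, the gene of cytoplasmic actin, had 13 and 23, RPLP2 12 and 14, and ALKBH5 8 and 14. Over all 35 genes, with a cluster listed under several genes counted once, replicate 1 had 32 clusters in coding sequence, 10 in 3' UTRs, 1 in a 5' UTR and 17 in introns, and replicate 2 had 41, 13, 1 and 19.

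**Figure D5:**
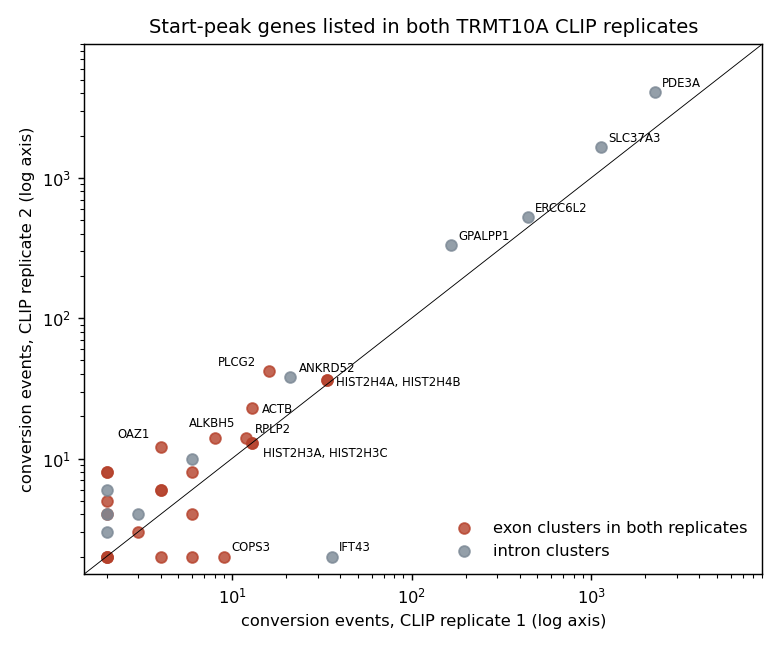
Conversion events per gene in CLIP replicate 1 (horizontal) and replicate 2 (vertical), both on log axes, for the 35 start-peak genes listed in both; red points have exon clusters in both replicates and grey points intron clusters, and the line marks equal counts. The 4 points at the upper right, PDE3A, SLC37A3, ERCC6L2 and GPALPP1, are intron clusters, and all red points lie under 50 events in both replicates.

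Clusters were then placed on the start peaks themselves. Of the distinct exon clusters of start-peak genes matched to GENCODE, 53 of 53 in replicate 1 and 86 of 88 in replicate 2 could be placed on the gene's transcript. The start peak was overlapped by 7 of these in replicate 1 (an interval of 6.55 to 24.8%) and by 12 in replicate 2 (8.17 to 22.8%), and a further peak by 5 and 13. Start peaks covered 5.46% of the bases of the transcripts with placed clusters in replicate 1 and 5.02% in replicate 2, and further peaks 11.6% and 13.3%. No enrichment is read from these shares. A cluster counted when only part of it overlapped, and the start peak took 150 of 435 bases in HIST1H4C but 158 of 6858 in HNRNPU. Counted from the RefSeq GRCh38.p14 gene start in place of the GENCODE start, 9 clusters in replicate 1 and 17 in replicate 2 overlapped the start peak. From either start, clusters overlapped the start peak in both replicates for ACTB, COPS3, GTF2I and HIST2H4A. From the RefSeq gene start alone this also held for RPLP2, whose GENCODE start lies 320 bases before it. In the 5' UTR of GTF2I, a transcription factor gene, the clusters lay at chr7:74657817-74657834 in replicate 1 and chr7:74657822-74657838 in replicate 2, plus strand, with 2 events in each. GTF2I, ACTB and the histone genes have near-identical copies or pseudogenes, so their events are uncertain. At COPS3, a subunit gene of the COP9 signalosome, the overlapping clusters had 7 and 2 events. The GENCODE start lies 47 bases before the RefSeq gene start at COPS3 and 33 before it at GTF2I, and the clusters of both genes overlapped the start peak from either start. The overlapping clusters of ACTB had 3 events in replicate 1 and 2 and 2 in replicate 2. At ALKBH5 the 1 overlapping cluster, with 3 events in replicate 1, depends on a GENCODE start that lies 411 bases inside the RefSeq gene start. The other clusters that overlapped from the GENCODE start, in 8 genes, were found in 1 replicate each.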

How the data were processed

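The deposited tables came from 6 libraries: m6A-IP and input after TRMT10A knockdown, m6A-IP and input after control knockdown, and 2 CLIP replicates, grouped by their titles. Per the file headers, the authors gave each m6A line a log2 ratio of knockdown over control and a common or unique call. GGACU positions were listed in 6314 lines. Per the file headers, the deposited CLIP values are raw counts of conversion events per cluster, at least 2 in every cluster, and of clusters per line. The submitters' processing notes name TopHat2, Cuffdiff and hg38, with no role. Which programs called peaks and clusters, and how the ratio was scaled, were not given in the sources used here. Longer, merged or trimmed calls would change both the number and the length of start peaks.

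From these files the following was computed in python 3.11.15 (pandas 2.3.3, numpy 2.4.6, scipy 1.17.1, matplotlib 3.10.9). Gene columns and ratio columns were treated as separate blocks, because 418 of 7442 listed motif positions (5.62%) lay in the peak of their own line. Symbols turned into dates in 48 lines were restored through gene identifiers. RefSeq identifiers were matched to GENCODE release 29 transcripts (hg38), and gene starts to RefSeq on GRCh38.p14. Listed motif positions lay 3 bases after the first base of the motif. A ratio was joined to a peak when its 2 or more positions were exactly the GGACU of that peak and of no other. Shares carry 95% Wilson intervals. No paired analysis or test between arms was made, since the m6A data have 1 library per arm.

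Members, gene lists and comparisons were chosen with earlier results of these data known. Named are the m6A and cap list members, the 10 longest start peaks, the 10 transcripts with most peaks, the 10 start peaks with most GGACU, 12 CLIP genes by mean rank, genes with CLIP clusters on the start peak in both replicates, up to 4 members of the other lists, 3 peaks on each side of the threshold, and the 6 highest and 6 lowest joined ratios. Ties went by symbol.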

Additional observations from a re-analysis of the deposited data

How the results depend on the processing

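The position taken as the border of a start decided the number of peaks, of which 653 began at 50 or less and 3375 at 200 or less, against 1631. A further peak was present on 80.4% of transcripts with the border at 50, and on 72.2% where it had to lie at least 100 bases away, against 77.8%. GGACU was found in 19.6% of peaks with the border at 200, against 16.4%, and DRACH in 87.1%. The share of transcripts beginning with A was 30.8% with GENCODE starts, 51.2% with RefSeq GRCh38.p14 gene starts and 36.3% where both starts lay within 10 bases. The settings with RefSeq gene starts or with both starts, and those on ratio lines, were chosen after seeing the data. For start-peak genes in both CLIP replicates (2.15%), exon clusters gave 1.47%, clusters of at least 5 events 0.797% (background 0.725%), and single replicates 3.13 to 4.48%. Clusters on the start peak numbered 19, with 7 to 12 in single replicates, 10 where both starts lay within 10 bases and 26 counted from RefSeq gene starts. Adding joins by 1 motif raised the joined peaks to 26, against 13, and reversed their median log2 ratio to 0.41, against -0.39. The cause was not tested. The listed region matched for 23 of the 26, among them all 13 joined by 2 or more motifs. Those without a match were joined by 1 motif, namely C22orf29 (-0.18), FBXO3 (1.04) and KIAA1033 (1.55). The median of the 64 ratio lines was 0.25 with common lines, 0.19 with motifs at 50 or less and 0.40 with noncoding transcripts included. These 3, the 26 clusters counted from RefSeq gene starts and the other alternatives not given here, 16 in all, stayed within the interval, within 1 SD or within 1.5 times the count of the reported value. No paired analysis was possible because the 2 CLIP replicates form 1 group and the m6A data have 1 library per arm.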

Other observations

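Clusters in 5' UTRs of start-peak genes, chosen here after their values were seen, were found in 1 gene in CLIP replicate 1 and in 8 genes in replicate 2. Most had 2 events. The exception was SIRT1, which encodes a deacetylase, with 105 events at chr10:67885299-67885310 (hg38, plus strand) in replicate 2 and no cluster in replicate 1. Its start peak covered bases 1 to 134, but the cluster was not placed on that transcript, so an overlap is not shown. No gene of the small RNA classes searched, which left out nuclear tRNA genes, was annotated at the cluster.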
